A study of Rattus norvegicus with 5 samples.

Results

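The parotid gland of 1 rat taken 30 min after isoproterenol was compared with that of 1 rat taken 10 min after it. Both were male Sprague-Dawley rats of 2 to 3 months that had received the drug intraperitoneally. The comparison uses 2 of the 5 arrays of the study, chosen by their labelled time. The other 3 arrays are shown for reference and come from a rat taken at 60 min and from 2 control rats injected intraperitoneally with normal saline. All were of the same strain, sex and age range. Isoproterenol is a synthetic agonist of beta-adrenergic receptors. The labels give its dose as 20 mg per g body weight, a unit that is in doubt. Whole glands were profiled, with 1 rat on 1 Illumina bead array, so acinar, duct, vessel, fat and blood cells all contributed RNA. How long after saline the controls were killed is not given in the labels. The step between 10 and 30 min therefore rests on 2 animals, has no replicate check and is described by sizes and counts. A limma contrast that takes its spread from the controls is given once, as an alternative. The number of arrays limits the precision. The difference between the 2 control rats, who differ by no treatment, is given beside the main counts and many, but not all, of the values. It serves as the background for 1 rat against 1 rat.

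In a parotid acinar cell, beta-adrenergic receptors raise cAMP, which releases the catalytic subunits of protein kinase A. These drive exocytosis of amylase granules and also phosphorylate CREB, a transcription factor that binds cAMP response elements in the promoters of its targets. Immediate early genes such as Fos, Junb and Egr1 are transcribed within minutes of a stimulus without new protein synthesis, and many of them encode transcription factors. A second layer of early genes encodes inhibitors, among them MAP kinase phosphatases, ICER from the Crem gene and mRNA decay factors, which limit the signal. Repeated isoproterenol is a classical means of enlarging rodent salivary glands.

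The palindrome TGACGTCA is the full cAMP response element, TGACG its shared core, and the CArG box the element read by serum response factor. Among 45 genes named here as at least 2-fold higher at 30 min, 38 had a promoter in the RefSeq table (build GRCr8), and 6 of these held TGACGTCA or a CArG box. The promoters of 3 such genes, the MAP kinase phosphatases Dusp1 and Dusp5 and the cAMP-responsive regulator Crem, are printed because they show both kinds of element. The 250 bases before the start site are given 5′ to 3′ on the strand of the gene, at chr17:58984547-58984796 (+) for Crem, chr10:17184603-17184852 (+) for Dusp1 and chr1:262543524-262543773 (+) for Dusp5. Capitals mark TGACGTCA in Crem and Dusp1 and a pair of adjoining CArG boxes in Dusp5.
Crem: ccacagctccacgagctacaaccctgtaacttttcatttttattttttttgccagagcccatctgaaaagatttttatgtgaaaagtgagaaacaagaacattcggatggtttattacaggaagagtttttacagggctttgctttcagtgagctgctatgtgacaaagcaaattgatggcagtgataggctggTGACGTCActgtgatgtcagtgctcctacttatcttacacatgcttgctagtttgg
Dusp1: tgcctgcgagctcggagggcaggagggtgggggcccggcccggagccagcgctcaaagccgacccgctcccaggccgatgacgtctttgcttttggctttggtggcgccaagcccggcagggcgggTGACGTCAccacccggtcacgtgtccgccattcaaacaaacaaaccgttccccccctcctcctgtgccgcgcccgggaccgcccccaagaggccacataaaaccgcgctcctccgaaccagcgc
Dusp5: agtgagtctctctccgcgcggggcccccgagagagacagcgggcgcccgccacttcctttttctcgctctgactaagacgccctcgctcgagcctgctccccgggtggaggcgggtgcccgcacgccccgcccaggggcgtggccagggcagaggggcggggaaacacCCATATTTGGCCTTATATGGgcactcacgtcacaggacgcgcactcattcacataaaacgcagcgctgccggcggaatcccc

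In Crem the palindrome lies 56 to 49 bases before the start, at 1 of 3 start sites that the table lists for this gene. In Dusp1 it lies 124 to 117 bases before the start. The CArG boxes of Dusp5 span bases 82 to 73 and 72 to 63. The search covered both strands of 250 bases before and 50 after each start. TGACGTCA was present in 10 of 177 promoters (5.65%) of genes at least 2-fold higher at 30 min, and in 1 of 76 (1.32%) of genes lower. These sets leave out the skeletal muscle list described below, but not the further muscle-type genes named after it. The palindrome's share among lower genes thus rests on 1 promoter. TGACGTCA was present in 3.10% of 5808 promoters of all genes measured and in 2.00% of the 27457 promoters in the table. The core TGACG, which is also counted inside the palindrome, was in 32.8% of the promoters of higher genes, 31.6% of those of lower genes and 33.3% of those measured. In the list of CREB target genes described below it was in 12 of 17 promoters. That list was picked as known CREB targets, with earlier results of these data known, so its share is not independent of the motif. A CArG box was in 4 promoters of higher genes (2.26%), 1 of lower genes (1.32%) and 1.21% of those measured. TATAAA was in 29 (16.4%), 5 (6.58%) and 8.40% of the same sets. Over all promoters in the table TGACG was in 23.0%, a CArG box in 1.77% and TATAAA in 15.3%. A match describes these letters and shows neither binding nor a cause.

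Levels are given as normalized log2 intensities, on which a difference of 1 is a 2-fold difference, and all differences are 30 min minus 10 min unless stated. The background correction subtracts an estimated background and then adds a constant. The constant makes folds of dim probes smaller, but the correction as a whole made more probes pass 2-fold. Outside the skeletal muscle list described below, 334 were higher and 161 lower with it, against 131 and 38 without it. The folds printed here are therefore not conservative in this respect. A probe was detected where its deposited detection p-value was below 0.01. Of 22517 probes, 9840 were detected in at least 1 of the 2 rats, and 7164 of these carried a gene symbol (7040 genes). Between 9095 and 9459 probes were detected on each of the 5 arrays.

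Skeletal muscle genes gave the largest group of differences, and they were set apart because the controls differed by as much in the same genes. Acta1, skeletal muscle alpha-actin, stood at 14.07 at 30 min, against 8.03 at 10 min, with 10.80 at 60 min and with 8.32 in control 2 and 14.00 in control 1. Muscle creatine kinase Ckm stood at 13.36 at 30 min, against 7.39 at 10 min, and at 7.39 in control 2, against 13.26 in control 1. The gland of the 30 min rat thus lay at the level of control 1 for both genes, and that of the 10 min rat at the level of control 2. Hjv, which encodes hemojuvelin and is expressed in skeletal muscle, was not detected at 10 min. For such genes the fold is a lower bound, set against the dimmest level that counted as detected on that array or the gene's own value if that was higher, and for Hjv it was at least 25.2-fold higher at 30 min. The differences of Myl11 and Tnni2, fast-muscle myosin light chain and troponin I, were 5.99 and 5.87, and that of the fast-fibre alpha-actinin Actn3 was 5.48.

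Of 93 muscle probes measured, 62 (66.7%) were at least 2-fold higher at 30 min and 2 (2.15%) at least 2-fold lower. This share depends on the filter, since many of these probes were measured only through their detection at 30 min. Of 90 muscle genes, 89 were detected at 30 min and 47 at 10 min. The list's median difference was 1.68, but 0.96 among probes detected on both arrays and 1.02 without the detection filter. Between the controls, 54 of 91 (59.3%) were at least 2-fold lower in control 2 than in control 1 and 0 were higher. The intensities of the 90 muscle genes measured summed to 94795 at 30 min, against 20101 at 10 min, and to 20520 in control 2, against 93951 in control 1. Sums here and below use the deposited intensities, from which no background was subtracted. Background therefore adds to every sum and makes their ratios smaller. Across 90 muscle probes Pearson's r between the time difference and the control difference was -0.95. With the muscle probes left out it was 0.35 over 9211 probes. These probes share the same 4 arrays and are not independent, so the coefficients are descriptions. In RNA of a whole gland, fewer cells of a type and less RNA per cell cannot be told apart.

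**Figure D1:**
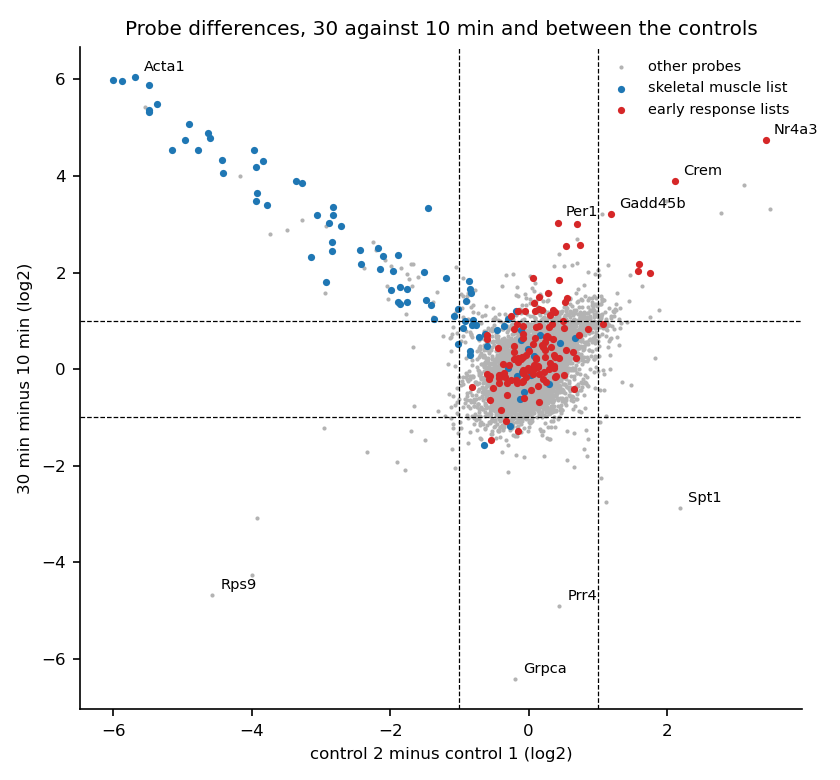
Each point is a probe, with the log2 difference between 30 and 10 min on the vertical axis and that between control 2 and control 1 on the horizontal axis; dashed lines mark 2-fold. Skeletal muscle genes (blue) run along a diagonal on which the time difference mirrors the control difference, while early response genes (red) at the top, such as Nr4a3, Crem and Per1, lie right of centre.

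Outside the muscle list, more probes were higher than lower at 30 min. A total of 334 of 9747 (3.43%) were at least 2-fold higher and 161 (1.65%) at least 2-fold lower. Between the controls, 100 of 9828 (1.02%) were at least 2-fold higher in control 2 and 80 (0.814%) at least 2-fold lower. Including the muscle list, the counts were 396 higher (4.02%) and 163 lower (1.66%) at 30 min, against 100 (1.01%) and 134 (1.35%) between the controls. Without background correction the probes outside the muscle list split into 131 higher and 38 lower. The share higher was then 77.5%, against 67.5% with the correction. All these counts use measured values, also where the dim array did not detect the probe. That was so for 79 of the 334 higher probes, of which 35 reached 2-fold by their bound, and for 40 of the 161 lower probes, of which 18 did. The spread of the difference outside the muscle list, as an SD over probes, was 0.54 for 30 minus 10 min and 0.39 for control 2 minus control 1.

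Set against the controls, the higher probes were a mixture. At 30 min 292 of the 334 lay above both controls and 16 below both. At 10 min only 31 already lay above both controls, 175 lay between them and 128 lay below both. Thus 94 probes were below both controls in the 10 min rat and above both in the 30 min rat. Control 2 exceeded control 1 for 251 of the 334 probes (75.1%), and for 52.4% of the 9252 probes that differed by less than 2-fold. The controls were themselves at least 2-fold apart in the same direction for 48 of them and in the opposite direction for 30. In the 60 min rat 232 stood higher still than at 30 min, 73 lay between the levels at 10 and 30 min and 29 lay below the level at 10 min.

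Among those 30 probes were further muscle-type genes that the list did not hold. Rtn2, a reticulon abundant in muscle, stood at 7.62 at 30 min and was not detected at 10 min, at least 5.70-fold higher, and it was detected neither at 60 min nor in control 2, with 7.73 in control 1. Abra, an actin-binding protein of striated muscle, and Fitm1, a fat-storage protein of muscle, showed the same alternation, with lower bounds of 4.40-fold and 2.95-fold. Their positions follow the muscle list, and they are not counted among the early genes below.

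A total of 13 gene lists cover early responses, from AP-1, EGR and KLF factors and CREB targets to feedback inhibitors, mRNA decay, growth arrest, chemokine, metabolic and glucocorticoid-responsive genes. Together they held 136 measured genes, of which 29 (21.3%) were at least 2-fold higher at 30 min and 3 at least 2-fold lower. Over all probes outside the muscle list the shares were 3.43% and 1.65%, counted by probe rather than by gene. The lists were chosen with earlier results of these data known, so the comparison is not a test. The median difference was 0.32, against -0.06 over all probes kept. Between the controls, 7 of these genes were at least 2-fold higher in control 2, 0 were lower, and the median was 0.10. At 30 min all 29 higher genes lay above both controls. At 10 min 13 of them already did, 7 lay between the controls and 9 lay below both. In the 60 min rat 18 of the 29 stood above their 30 min level and 11 below it.

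Among the early response lists, direct CREB targets held the genes with the largest differences and had the highest median. Of 19 measured members, 8 were at least 2-fold higher, 0 were lower, 17 had a positive difference and 16 lay above both controls at 30 min. The list's median difference was 0.93 between 30 and 10 min and 0.31 between the controls, of which control 2 was at least 2-fold higher for 4 genes. Nr4a3, an orphan nuclear receptor induced by cAMP, stood at 10.89 at 30 min, against 6.14 at 10 min, 26.9-fold higher, with 12.24 at 60 min and with 9.52 in control 2 and 6.10 in control 1. The 10 min rat lay at the level of the lower control and the 30 min rat above the higher one, and the controls were themselves 3.42 apart. Crem, whose inducible product ICER represses cAMP response elements, stood at 9.36 at 30 min, against 5.47 at 10 min, with 11.61 at 60 min and with 7.56 in control 2 and 5.45 in control 1. A second Crem probe differed by 2.16 in the same direction, and was at least 2-fold apart between the controls as well.

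Per1 and Sik1 differed by much more than the controls did. Per1, a period gene of the clock and a CREB target, stood at 9.91 at 30 min, against 6.87 at 10 min, with 11.09 at 60 min and with 8.87 in control 2 and 8.45 in control 1. The 10 min rat lay below both controls and the 30 min rat above both. Sik1, a kinase that holds back the coactivators of CREB, stood at 9.55 at 30 min, against 7.01 at 10 min, with 10.71 at 60 min and with 7.59 in control 2 and 7.05 in control 1. Nfil3, a basic leucine zipper repressor, differed by 2.18, with the controls 1.59 apart. Rgs2, which inhibits G protein signalling, differed by 1.20 and was already above both controls at 10 min.

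Several genes outside these lists belong with the largest differences. Coq10b, a mitochondrial coenzyme Q-binding protein, stood at 12.14 at 30 min, against 8.33 at 10 min, with 14.66 at 60 min and with 11.70 in control 2 and 8.59 in control 1. Rd3l stood at 8.37 at 30 min, against 5.16 at 10 min, and its controls were 1.06 apart. For Coq10b the 30 min level exceeded the higher control by little, since the controls differed by 3.12, whereas for Rd3l it was clear of both. Nabp1, a single-stranded DNA-binding protein, stood at 9.16 at 30 min, against 6.46 at 10 min, and Hopx, a homeodomain protein that does not bind DNA, differed by 2.39.

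The AP-1, EGR and KLF transcription factors were represented by few genes past 2-fold. Of 7 AP-1 genes measured 2 were at least 2-fold higher and 0 lower. Junb, a subunit of AP-1, stood at 12.67 at 30 min, against 9.67 at 10 min, 7.97-fold higher, with 12.44 at 60 min and with 8.65 in control 2 and 7.95 in control 1. Fos, its dimer partner, stood at 7.25 at 30 min, against 5.68 at 10 min, with 6.23 at 60 min, and was not detected in either control. Both genes were above the controls at 10 min already and highest of the 3 times at 30 min. Atf3, a stress-induced member, differed by 0.64. On the authors' processed values the difference of Fos was 0.95, just under 2-fold.

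Of 12 EGR and KLF genes 2 were at least 2-fold higher and 1 lower. Egr1, a zinc finger factor induced by many stimuli, stood at 9.87 at 30 min, against 8.30 at 10 min, with 9.43 at 60 min and with 7.29 in control 2 and 7.0 in control 1. Its promoter holds CArG boxes too. Klf4, a Krüppel-like factor of epithelial differentiation, stood at 10.20 at 30 min, against 7.62 at 10 min, and at 11.28 at 60 min, with the controls 0.74 apart. Klf10 went the other way, with 6.67 at 30 min, against 7.74 at 10 min, and 7.15 in control 2 and 7.48 in control 1.

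Targets of serum response factor and the IER genes gave 3 of 11 at least 2-fold higher and 0 lower, with a median difference of 0.67 (0.22 without the detection filter), against -0.07 between the controls. Ier2 stood at 9.99 at 30 min, against 8.63 at 10 min, with 8.92 at 60 min and with 8.02 in control 2 and 7.94 in control 1. Ccn1, a secreted matrix-associated protein, stood at 10.32 at 30 min, against 9.07 at 10 min, with 8.01 at 60 min and with 7.26 in control 2 and 7.12 in control 1. Ier3, a stress-response gene, differed by 1.20. In all 3 the 60 min rat lay below the 30 min rat. Outside the 2-fold rule, tropomyosin gene Tpm4 differed by 0.94 and stood at 9.21 at 60 min.

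Inhibitors of MAP kinase signalling gave 4 of 12 at least 2-fold higher and 0 lower. Their median difference was 0.56 (0.05 without the detection filter), against 0.37 between the controls. Dusp1, the phosphatase whose promoter is printed above, stood at 14.37 at 30 min, against 12.34 at 10 min, with 14.42 at 60 min and with 11.10 in control 2 and 9.53 in control 1. Dusp5, a nuclear phosphatase for ERK, stood at 9.19 at 30 min, against 7.21 at 10 min, with 9.75 at 60 min and with 7.55 in control 2 and 5.79 in control 1. Dusp1 exceeded both controls at both times, whereas Dusp5 lay within the span of the controls at 10 min. Dusp8, a phosphatase for JNK and p38, was not detected at 10 min and was at least 2.34-fold higher at 30 min. A second Dusp8 probe differed by 0.38. Errfi1, an inhibitor of the EGF receptor, stood at 8.47 at 30 min, against 7.24 at 10 min, with 10.55 at 60 min and with 8.05 in control 2 and 7.70 in control 1.

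Growth arrest genes added 3 members past 2-fold, and mRNA decay and inflammatory genes 1 per list. Gadd45b, a stress-response regulator of MAP kinase kinases, stood at 9.05 at 30 min, against 5.85 at 10 min, with 11.05 at 60 min and with 6.73 in control 2 and 5.53 in control 1. Gadd45g stood at 12.88 at 30 min, against 11.67 at 10 min, with 9.91 in control 2 and 9.73 in control 1, so it was already clear of the controls at 10 min. Ccng2, cyclin G2, was not detected at 10 min, and its difference of 1.20 has a bound of at least 1.68-fold higher at 30 min. Of 11 growth arrest genes 3 were at least 2-fold higher and 0 lower, with the survival gene Mcl1 at 0.99. Of 9 mRNA decay genes 1 was higher, namely Zfp36, tristetraprolin, with 9.06 at 30 min, against 7.97 at 10 min. Of 11 NF-kB targets and chemokines 1 was higher, the neutrophil chemokine Cxcl1, with 7.79 at 30 min, against 6.29 at 10 min, and 6.47 in control 2 and 6.32 in control 1. Ptgs2, the inducible cyclooxygenase, was detected only at 30 min, at 6.62, at least 2.83-fold higher than at 10 min, and was the 1 of 10 growth factor and EGF receptor genes past 2-fold. On the authors' processed values its difference was 0.99.

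Metabolic and glucocorticoid-responsive genes gave 4 of 15 and 5 of 11 at least 2-fold higher, with some genes in both lists, and 1 (Ankrd37, described below) and 0 at least 2-fold lower. Sgk1, a kinase that raises sodium transport, stood at 10.27 at 30 min, against 8.42 at 10 min, with 9.04 in control 2 and 8.61 in control 1. Irs2, an adaptor of the insulin receptor and a CREB target, stood at 7.71 at 30 min, against 6.24 at 10 min, with 6.09 at 60 min, and was not detected in either control. Ddit4, an inhibitor of mTORC1 induced by glucocorticoids, stood at 10.30 at 30 min, against 8.83 at 10 min, with 8.97 in control 2 and 8.42 in control 1. Per1, Dusp1, Sgk1 and Ddit4 stand on the glucocorticoid list, whose median difference was 0.47, against 0.24 between the controls. Among 10 clock genes 3 were higher (Per1, Nfil3 and Bhlhe40) and 1 lower by its measured value, Tef, which was not detected at 30 min and had a bound of at least 1.61-fold lower.

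**Figure D2:**
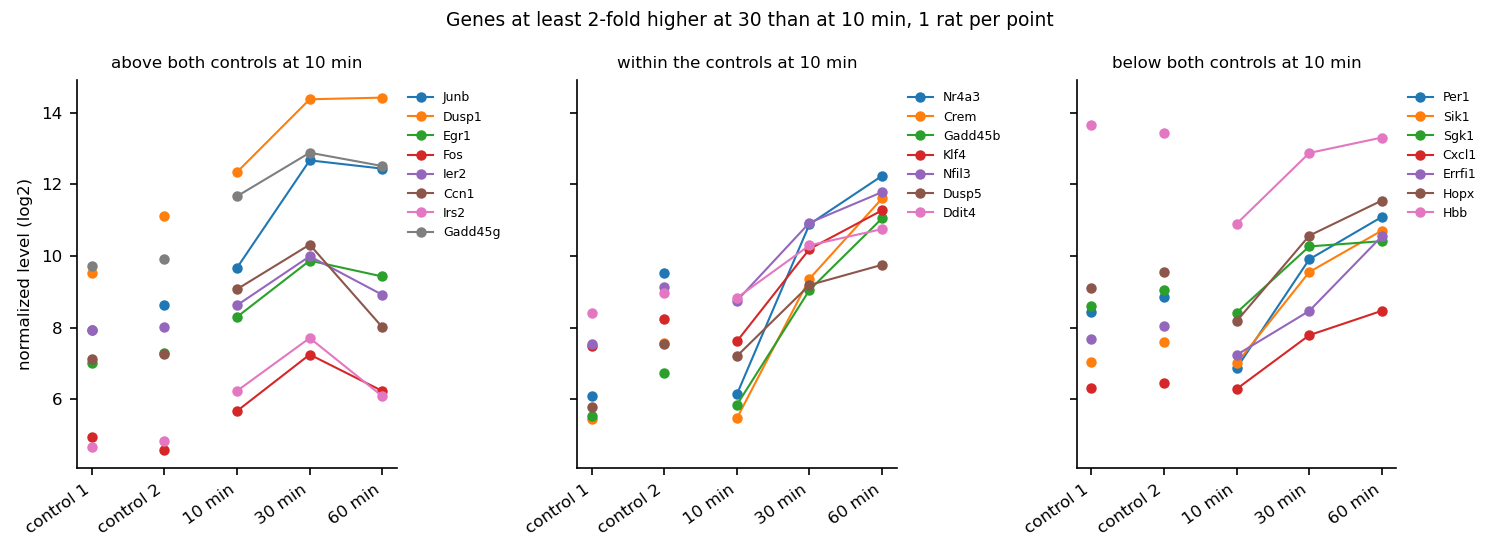
Normalized log2 level of named genes in each rat, with 1 point per rat, both controls shown apart and the 3 times joined, in panels by whether the 10 min rat lay above, within or below the 2 controls. All genes shown were higher at 30 than at 10 min; Fos, Ccn1 and Irs2 were lower again at 60 min, whereas Nr4a3, Crem, Per1 and Sik1 were higher at 60 than at 30 min.

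The 2 largest differences downward belonged to salivary secretory proteins that were high in the 10 min rat alone. Grpca, a glutamine-rich and glutamic acid-rich salivary protein of the rat, stood at 5.27 at 30 min, against 11.69 at 10 min, 85.3-fold lower, with 6.81 at 60 min and with 6.16 in control 2 and 6.35 in control 1. Prr4, a proline-rich salivary protein, stood at 6.07 at 30 min, against 10.97 at 10 min, with 7.52 at 60 min and with 6.22 in control 2 and 5.78 in control 1. The 30 min rat lay within the controls for Prr4 and below both for Grpca, and the 10 min rat stood apart from all 4 others. A limma contrast that borrows its spread from the 2 controls called 1 of 9840 probes (0.0102%), Grpca, with an adjusted p of 0.0351, while 1228 probes had an unadjusted p under 0.05. In that fit the lone rats are assumed to vary as the controls did.

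Other large differences downward were in genes that also differed widely between the controls. The probe for Rps9, a protein of the small ribosomal subunit, stood at 7.44 at 30 min, against 12.12 at 10 min, with 7.55 at 60 min and with 8.26 in control 2 and 12.84 in control 1. Its level was high in control 1 and the 10 min rat and low in the other 3 rats, an order that did not follow treatment. Spt1, a salivary protein of the rat, stood at 7.96 at 30 min, against 10.84 at 10 min, with 5.47 at 60 min and with 11.30 in control 2 and 9.12 in control 1. Scgb1b30, a secretoglobin, stood at 7.82 at 30 min, against 9.74 at 10 min, with 10.20 in control 2 and 12.10 in control 1. Each of these values rests on a single probe, and Rps9, Grpca and Prr4 have close relatives or copies in the genome, so which copy a probe measured is uncertain.

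Smaller downward differences that exceeded the spread of the controls included F5, coagulation factor V, with 8.59 at 30 min, against 10.39 at 10 min, 9.64 at 60 min and 10.15 in control 2 and 9.92 in control 1. Ccnb2, a mitotic cyclin, stood at 5.35 at 30 min, against 7.07 at 10 min, with 6.26 in control 2 and 6.65 in control 1. Fn3k, a kinase that repairs glycated proteins, differed by -1.57 and had its high value in the 10 min rat. Myc, the growth-promoting transcription factor, stood at 8.09 at 30 min, against 9.37 at 10 min, with 9.63 at 60 min and with 8.93 in control 2 and 9.08 in control 1. For Myc the 30 min rat was the lowest of the 5. Ankrd37, a hypoxia-responsive gene, differed by -1.47, and Zfp386, Myo19 and Mfhas1 by -1.45, -1.44 and -1.42. Between the controls these genes differed, in that order, by -0.54, -0.69, 0.26 and -0.48. A second Myo19 probe differed by -0.35. Of the 161 lower probes outside the muscle list, 154 lay below both controls at 30 min. A total of 80 lay above both controls at 10 min and below both at 30 min. Control 2 exceeded control 1 for 39 of the 161 (24.2%), and it was at least 2-fold lower for 15 and higher for 4. In the 60 min rat 158 were still below their 10 min level and 107 below their 30 min level.

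Interferon-stimulated genes were lower as a group, and the controls differed in the same genes. Of 17 measured, 4 were at least 2-fold lower and 1 higher, 15 had a negative difference, and 16 lay below both controls at 30 min. The median was -0.71, and -0.36 on the authors' processed values, against -0.43 between the controls, where all 17 were lower in control 2. Mx1, an antiviral GTPase, stood at 6.0 at 30 min, against 7.13 at 10 min, with 5.93 at 60 min and with 6.78 in control 2 and 7.44 in control 1. Its relative Mx2 was not detected at 30 or 60 min and was at least 2.76-fold lower at 30 min. Oasl was past 2-fold by its measured value and had a bound of at least 1.87-fold lower, and Rtp4 differed by -1.07. The list's median level was 5.76 at 30 min, against 6.12 at 10 min, with 5.50 at 60 min and with 6.13 in control 2 and 6.51 in control 1.

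Of 23 MHC genes 0 were higher and 1 lower by 2-fold, with a median of -0.37, against -0.41 between the controls. RT1-S2, a class I gene, was not detected at 30 min and was at least 2.36-fold lower than at 10 min, and its controls were 1.06 apart. B2m, the light chain of class I, stood at 12.17 at 30 min, against 13.14 at 10 min, with 12.16 at 60 min and with 13.04 in control 2 and 13.74 in control 1. Class I genes of the rat are near-identical copies of each other, so the assignment of a probe to RT1-S2 is uncertain.

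**Figure D3:**
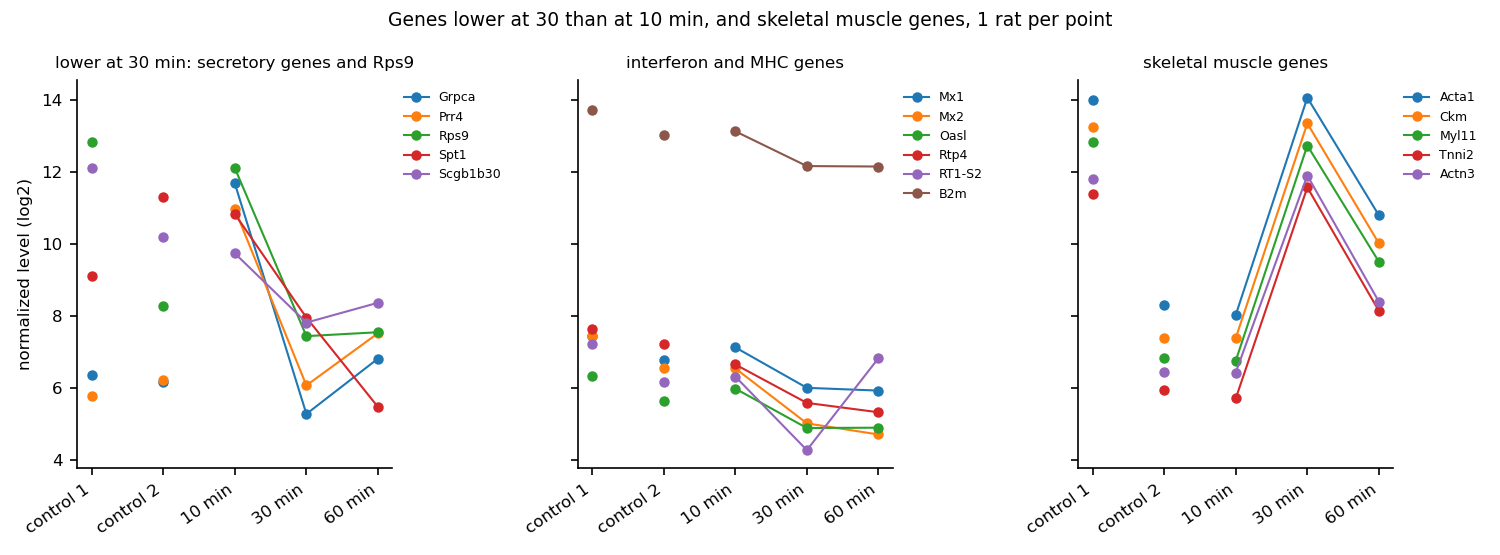
Normalized log2 level in each rat, drawn as for the higher genes, of secretory genes and Rps9 (left), interferon and MHC genes (middle) and skeletal muscle genes (right). Grpca and Prr4 are high at 10 min only, Rps9 is high in control 1 and at 10 min, and the muscle genes are high in control 1 and at 30 min.

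Most genes on the acinar list and on the receptor pathway list differed by less than 2-fold between the 2 rats. The acinar list, which does not hold Grpca and Prr4 with their differences of -6.41 and -4.90, had 21 measured genes. It had 0 higher and 2 lower by 2-fold (Spt1 with -2.88 and Scgb1b30 with -1.93). Its median was -0.05, against 0.18 between the controls, and its summed intensity was 297012 at 30 min, against 309994 at 10 min. Amylase Amy1 differed by -0.07 and the water channel Aqp5 by -0.06. Quantile normalization gives every array the same highest values, so a sum led by very bright probes can differ little. Acinar markers were detected in both glands. Of 13 components of the beta-adrenergic and protein kinase A pathway 0 were past 2-fold, with a median of -0.01, and the largest difference was 0.68 for the regulatory subunit Prkar1a. Of 21 endoplasmic reticulum stress genes 0 were past 2-fold, with a median of -0.16. The chaperone Hspa5 stood at 9.96 at 30 min, against 10.70 at 10 min, with 10.26 in control 2 and 10.79 in control 1. Of 30 respiratory chain genes 0, and of 38 ribosomal protein genes 1 higher (Rps2) and 2 lower (Rps9 and Rps16) were past 2-fold, with medians of 0.03 and 0.18. Of 12 heat shock genes 2 were higher, Cryab and Hspb8, both at the threshold with 1.03 and 1.00. Between the controls Cryab differed by -0.88, opposite in sign as in the muscle list, and Hspb8 by 0.56.

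Among markers of cell types other than muscle and acinar cells, red cell, stromal, adipocyte and nerve lists had members past 2-fold and the other lists had none. Their part in the results above was not tested. Over all probes outside the muscle list 3.43% were at least 2-fold higher and 1.65% lower. In lists this short, having 0, 1 or 2 members past 2-fold does not set a list apart from those shares. Haemoglobin and other red cell genes gave 5 of 7 at least 2-fold higher at 30 min, with a median of 1.13 (0.53 on the authors' processed values), against -0.17 between the controls. Hbb, beta-globin, stood at 12.87 at 30 min, against 10.90 at 10 min, with 13.31 at 60 min and with 13.43 in control 2 and 13.65 in control 1, so the 10 min rat was the one apart. Summed red cell intensity was 24689 at 30 min, against 9333 at 10 min, with 29341 at 60 min and with 35013 in control 2 and 38828 in control 1.

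Fibroblast and endothelial markers gave 2 of 24 higher and 0 lower, with a median of 0.47, against -0.08 between the controls. Fn1, fibronectin, stood at 9.58 at 30 min, against 8.07 at 10 min, with 8.30 at 60 min and with 10.13 in control 2 and 10.29 in control 1. Of the 24 genes 23 lay below both controls at 30 min, and their summed intensity was 13985 at 30 min, against 10146 at 10 min, 12019 at 60 min, and 31745 in control 2 and 33133 in control 1. The summed signal of these genes was thus lower in all 3 isoproterenol rats than in either control, and lowest in the 10 min rat.

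Adipocyte markers gave 2 of 19 higher and 0 lower, with a median of 0.56 (0.25 without background correction). The 2 were Cfd and Car3, and Car3 also stands on the skeletal muscle list. Car3 differed by 1.20, against -0.19 between the controls. The adipocyte protease Cfd, adipsin, stood at 11.49 at 30 min, against 9.81 at 10 min, with 8.75 at 60 min and with 11.32 in control 2 and 11.26 in control 1. Duct markers gave 0 of 9 past 2-fold and a median of -0.65 (-0.21 without the detection filter), with 8 of 9 below both controls at 30 min. Between the controls their median was -0.27, with 7 of 9 negative. The duct keratin Krt19 stood at 9.26 at 30 min, against 9.93 at 10 min, with 8.89 at 60 min and with 10.00 in control 2 and 10.42 in control 1. Myeloid and mast cell, lymphoid and myoepithelial lists had 0 genes past 2-fold of 7, 8 and 6, with medians of 0.53, 0.28 and 0.26. Between the controls their medians were -0.38, -0.17 and -0.29. Without the detection filter the myeloid and lymphoid medians both turned to -0.01. Of 8 nerve and Schwann cell genes 1 was past 2-fold by its measured value, S100b, which was not detected at 10 min and had a bound of at least 1.99-fold higher at 30 min.

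**Figure D4:**
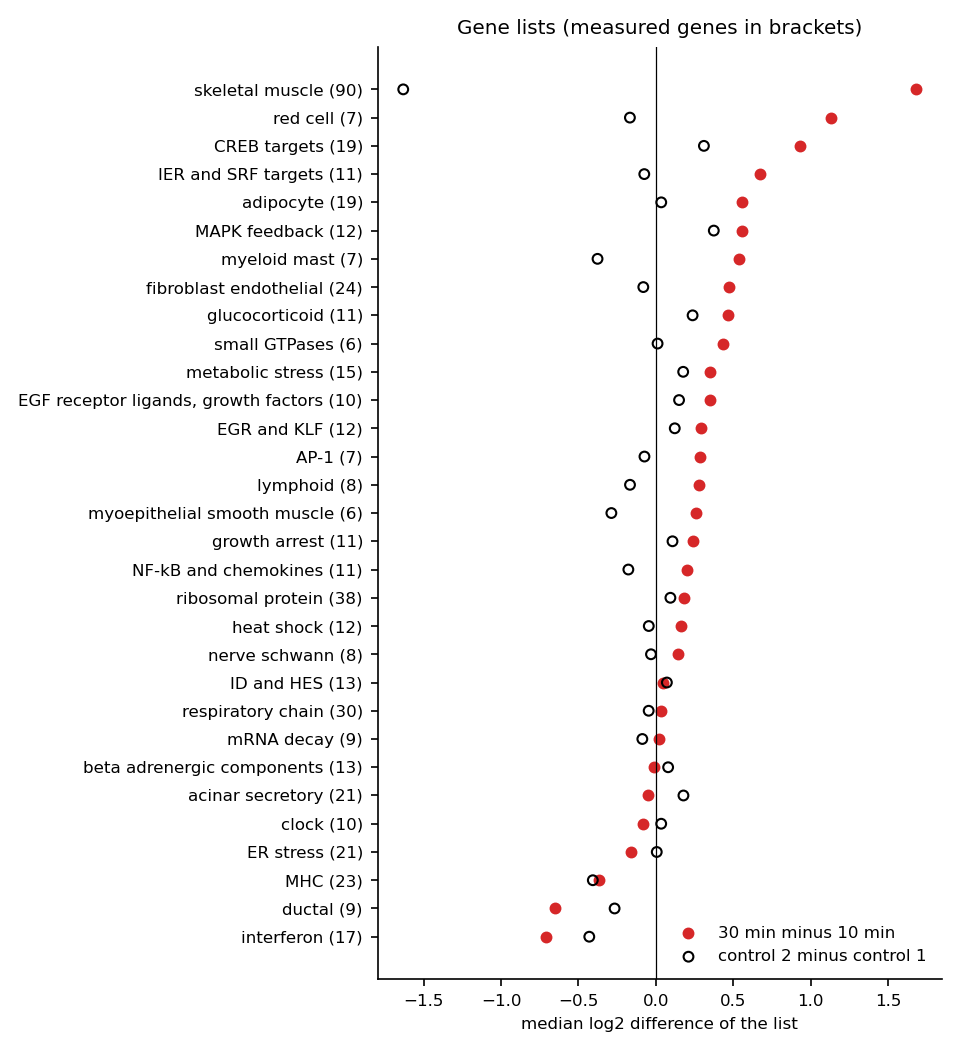
Median log2 difference of each gene list, with red points for 30 minus 10 min, open circles for control 2 minus control 1 and the number of measured genes in brackets. CREB targets lie at 0.93 against 0.31 between the controls, and the muscle list at 1.68 against -1.63; the interferon list has the lowest median for 30 minus 10 min, at -0.71.

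Genes with several measured probes give an internal repeat within the same 2 arrays. Among 119 such genes, 9 had a probe at least 2-fold higher, and in 7 of the 9 every probe differed in that direction. Only in Crem were all probes past 2-fold. For lower genes 6 had a probe past 2-fold, and in 5 of them every probe had the same direction. Of the beta-actin probes, 1 differed by 1.10 and the others by 1.00 and 0.11.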

How the data were processed

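RNA of 5 parotid glands was measured on Illumina bead arrays from biotin-labelled cRNA, 1 rat per array. The authors deposited, per the file headers, intensities with detection p-values for 22517 probes per array, and a second table of processed values on a log2-like scale. Which software and genome build were used is not given in the sources used here. Although named non-normalized, deposited intensities of the 5 arrays differed by a median of 0.133% at equal quantiles, with values from 43.1 to 40815, so they had been quantile normalized without background subtraction. A total of 0 value columns could not be mapped to a sample.

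All 5 arrays were background-corrected from the detection p-values with an offset of 16, quantile normalized and log2-transformed (neqc, limma 3.58.1, R 4.3.3), and the rest was computed in Python 3.11.15 with pandas 2.3.3. A probe was kept if its detection p-value was below 0.01 in the 10 or 30 min rat. That left out 12677 probes. A difference counted when it was at least 2-fold and the brighter array was detected. Of the probes, 13787 had 1 gene symbol and 8730 none, and 13747 Entrez identifiers matched GRCr8. For gene lists the probe with the highest mean level stood for its gene.

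Named genes are the 15 largest differences per direction outside the muscle list, among those larger than between the controls, and up to 4 members of each of 32 gene lists (6 for muscle). The beta-actin and second probes given beside them, the amylase and aquaporin values and the lists' grouping were chosen after their values were seen. The members and lists were chosen with earlier results of these data known. Alternatives varied the background correction, offset, scaling, arrays normalized, detection filter and threshold, and a limma contrast used all 5 arrays. The contrast was also run on simulated data whose noise was independent between probes and held no muscle difference between rats. That run therefore cannot check the contrast for these rats.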

Additional observations from a re-analysis of the deposited data

How the results depend on the processing

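Each side is 1 rat, so no setting gives a replicate check. No paired analysis was possible because each time has 1 rat and only the controls have more than 1 replicate. Counts below are probes at least 2-fold higher and lower at 30 than at 10 min, for all probes, then outside the muscle list, then the same between the controls (control 2 over control 1). Without background correction they were 177 and 39, then 131 and 38, with 21 and 78, then 21 and 35 between the controls. With an offset of 50 they were 201 and 50, then 152 and 49, with 27 and 82, then 27 and 39. On the authors' deposited log2 values they were 175 and 40, then 131 and 39, with 22 and 76, then 22 and 35. At 3-fold they were 114 and 22, then 66 and 22, with 13 and 82, then 13 and 37. Probes detected on both arrays left 255 higher and 121 lower at 30 min outside the muscle list. Between the controls that filter left 61 lower in control 2, 38 of them outside the muscle list. Leaving out probes whose controls were 2-fold apart left 256 higher and 142 lower outside the muscle list, and 0 between the controls by construction. The limma contrast at an adjusted p of 0.05 gave 0 higher and 1 lower (1228 probes had an unadjusted p under 0.05), counted alike outside the muscle list. Leaving out either control before normalization kept 334 higher and 161 lower outside the muscle list. As alternatives chosen after seeing the data, also leaving out probes 2-fold lower in control 2 gave 304 and 146 there, and counting undetected probes by their bound gave 290 and 139.

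Of 973 single-gene values recomputed, 807 stayed within 1 SD of the controls (0.27) and 166 moved. Of those from genes at least 2-fold different in the main setting, 0 changed sign. Sign changes of smaller differences were not counted. Of 74 named differences past 2-fold, 55 stayed so without background correction, 59 with an offset of 50, 53 on the authors' values and 73 with median scaling. Of 352 list medians recomputed 28 moved by over 1 SD. The median of the muscle list, 1.68, was lowest at 0.62 when probes whose controls were 2-fold apart were left out. Without the detection filter the median of MAP kinase inhibitors went from 0.56 to 0.05. Those of the growth factor and small GTPase lists went from 0.35 to 0.08 and from 0.43 to 0.11.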
